A study of Homo sapiens with 12 samples.

Results

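The genes described here are 9 targets of the transcription factor p53, grouped as arrest and feedback genes of its pathway. Their roles differ, and not all of them are known for halting the cell cycle or feeding back on p53 itself. They are CDKN1A, MDM2, GADD45A, SESN1, AEN, TP53INP1, BTG2, PLK3 and ZMAT3. They were taken from the deposited table by their symbols, as a list drawn up with earlier results of these data known, and all 9 of 9 were found among its 60641 symbols. All 9 passed the filter on low counts that left 17889 genes for testing, and the lowest group mean of any of them was the 107 reads of BTG2 in untreated cells.

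RNA was sequenced from SRA01/04, an immortalised cell line from human lens epithelium, after 24 hours of treatment. Untreated cells are called NC, cells with added asparagine NC-A, cells treated with 1,2-DHN (1,2-dihydroxynaphthalene, a naphthalene metabolite) DHN, and cells that received both DHN-A, with 3 libraries in each of the 4 groups. The labels name no other genotype, allele or agent in any of the groups. The sources used here give neither doses nor the order of addition. Nothing in the labels says that replicates were separate cultures, so p-values measure the spread between these libraries, which may be technical. As background, SRA01/04 was immortalised with the large T antigen of a simian polyomavirus, a protein that binds p53, and all groups share it.

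Stress such as DNA damage stabilises p53, which then binds response elements near its target genes and raises their transcription. CDKN1A encodes p21, which inhibits cyclin-dependent kinases and stops the cycle, and MDM2 encodes the ubiquitin ligase that marks p53 for destruction and so closes a negative feedback loop. Several of the same genes also answer to other stress regulators, among them the amino acid response factor ATF4 and the early growth response factor EGR1, so their RNA is not a reading of p53 alone.

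For 7 of the 9 genes, RefSeq windows of 300 bases around a transcription start (250 before and 50 after it, GRCh38.p14) were searched for the p53 response element. The element has 20 bases, made of a pair of adjoining decamers whose core C and G had to be intact, and up to 3 mismatches to the consensus were allowed elsewhere. It was found in windows of MDM2, AEN and SESN1, and in 392 of 35116 windows of all genes (1.12%). MDM2 and SESN1 had several windows each, so this share of windows is not a share of genes. The stretches around these 3 matches are shown because no window of the other members searched held a match. The matched element is in capitals.
MDM2, GRCh38.p14 chr12:68808823-68808992, plus strand: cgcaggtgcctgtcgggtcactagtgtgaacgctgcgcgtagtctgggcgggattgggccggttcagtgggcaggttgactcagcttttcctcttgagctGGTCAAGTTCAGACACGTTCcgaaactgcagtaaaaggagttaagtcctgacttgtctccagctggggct
AEN, GRCh38.p14 chr15:88621206-88621325, plus strand: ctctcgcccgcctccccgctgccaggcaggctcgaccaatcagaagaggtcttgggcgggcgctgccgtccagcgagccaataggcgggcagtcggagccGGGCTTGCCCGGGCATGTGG
SESN1, GRCh38.p14 chr6:109008989-109009137, minus strand: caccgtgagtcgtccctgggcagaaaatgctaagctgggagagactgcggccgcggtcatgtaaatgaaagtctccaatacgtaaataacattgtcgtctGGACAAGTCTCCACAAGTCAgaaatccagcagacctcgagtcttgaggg

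The MDM2 element has 2 mismatches and is intronic in GENCODE release 29, upstream of an internal start site (its first base is 94 or 101 bases before the start, for 2 neighbouring starts). The AEN element also has 2 mismatches, begins 34 bases before the RefSeq start and overlaps an annotated exon of AEN. The SESN1 element has 3 mismatches, is intronic and begins 49 bases before an internal start. The windows of CDKN1A, BTG2, PLK3 and ZMAT3 held no match, which says only that these letters are not in those windows. Other motifs were searched on both strands. The C/EBP-ATF element TGATGNAA was found in the window of PLK3 (in 3.62% of all windows). The AP-1 element TGANTCA was found in the internal MDM2 windows (7.71% of all). The antioxidant response core TGACNNNGC was found in the same MDM2 windows and in a window of SESN1 (13.3% of all). In MDM2 the AP-1 match lies within the antioxidant match, so they are not separate sites. A match is a description of sequence, not evidence of binding.

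Total counts per library ran from 12381071 to 27526206 reads, and mitochondrially encoded transcripts took 2.73% to 3.23% of them. NC-A 1 stood apart from the other asparagine libraries on the second principal component (-26.4, against 1.74 and 2.91). Of 16 lens epithelium markers 7 had enough counts for a test, with the lens regulators PAX6 at 21.6 to 30.9 CPM and SIX3 at 10.45 to 15.5 CPM. The lens crystallin gene CRYAA (at most 2 reads in a library), the fibre channel gene MIP (at most 3), the lens regulator FOXE3 (at most 8) and the epithelial cadherin gene CDH1 (at most 6) were at or near 0. CRYAB, which encodes alpha B-crystallin, was at 0.373 to 12.1 CPM and BFSP1, a gene of the lens beaded filament, at 3.40 to 5.68 CPM. CPM here is the deposited count scaled to a common library size, with library sizes adjusted by TMM factors (trimmed mean of M values).

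Per kilobase of the deposited gene length, the levels of the 9 genes in untreated cells spanned a wide range. CDKN1A was the highest at 88.4 ± 3.51 CPM per kb (mean ± SD, n = 3), followed by GADD45A at 50.5 ± 0.661, MDM2 at 11.6 ± 0.749, PLK3 at 9.27 ± 0.309 and AEN at 8.74 ± 0.487. TP53INP1 was at 3.77 ± 0.313, ZMAT3 at 2.08 ± 0.0855, BTG2 at 1.93 ± 0.0966 and SESN1 at 1.89 ± 0.199. The libraries of PLK3 and AEN overlapped, as did those of ZMAT3 and BTG2 and those of BTG2 and SESN1, so these neighbours were not ordered by their spread. CDKN1A, GADD45A and MDM2 were the top 3, in that order, in each of the 4 groups. BTG2 overlapped ZMAT3 in NC and lay above it without overlap in NC-A, DHN and DHN-A.

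**Figure D1:**
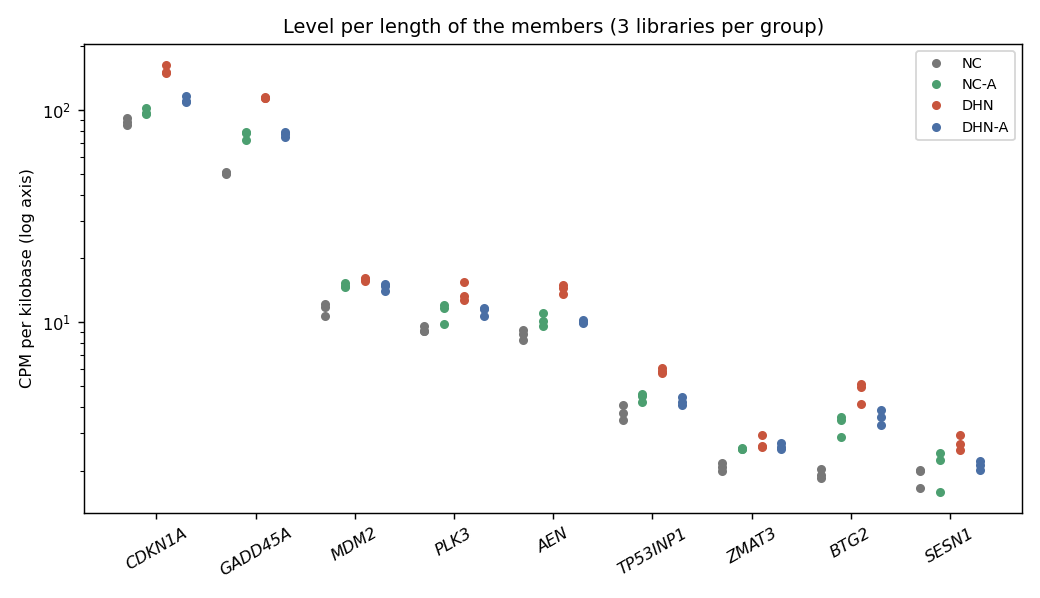
Levels of the 9 genes in CPM per kilobase of gene length (log axis) in the 4 groups, 1 point per library and 3 libraries per group. In NC the means run from 88.4 for CDKN1A to 1.89 for SESN1.

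The effect of 1,2-DHN in the absence of added asparagine was read from DHN against NC. All 9 genes rose: the changes ran from 0.38 for ZMAT3 to 1.29 for BTG2 on the log2 scale, with a median of 0.65 against 0.007 over all tested genes. Called means an edgeR quasi-likelihood test with a Benjamini-Hochberg adjusted p under 0.05 over the 17889 genes, and 19.7% of all tested genes were called higher in this comparison. In every member the 3 DHN libraries lay above the 3 NC libraries, an order whose share over all tested genes was not counted. In 8 of 9 members, all but ZMAT3, the 3 DHN libraries lay above the other 9 libraries of the study. This held for 15.3% of tested genes. The 3 NC libraries lay below the other 9 in 7 of 9 members, all but SESN1 and TP53INP1, and in 4.01% of tested genes. All 9 calls held in each of the 18 alternative analyses. Libraries are bulk RNA, so a change in the mix of cells and a change of RNA per cell cannot be told apart.

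Adding asparagine to treated cells (DHN-A against DHN) lowered 8 of the 9 genes, with 20.8% of all tested genes called lower and a median of -0.40 against 0.009. ZMAT3 was not called. Asparagine without 1,2-DHN (NC-A against NC) raised 8 of the 9 genes, where 9.32% of tested genes were called higher, with a median of 0.27 against 0.003. SESN1 was not called there. With NC-A 1 left out 7 were called. These comparisons share control libraries with DHN against NC, so their values are given side by side below and are not independent.

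Markers of fibroblasts moved with the groups. Their summed level ranged from 1387 to 1466 CPM in NC, from 1215 to 1220 CPM in NC-A, from 822.9 to 874.6 CPM in DHN and from 1196 to 1265 CPM in DHN-A. Of 8 such markers 6 were tested, and 5 fell in DHN against NC, where 19.0% of all tested genes were called lower. COL1A1, a collagen I chain, made up most of the sum, with means of 1234 CPM in NC and 692 in DHN, while DCN had at most 2 reads and LUM at most 5 reads in a library. The lens markers summed to 176.8 to 186.5 CPM in NC and 169.1 to 180.0 CPM in DHN, a sum made up mostly of the gap junction gene GJA1. Within the list GJA1 fell in DHN against NC, from a mean of 134.7 to 112.1 CPM, while PAX6, PROX1 and CRYAB rose, the last from 0.704 to 10.8 CPM. The part of these markers in the members' changes was not tested.

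**Figure D2:**
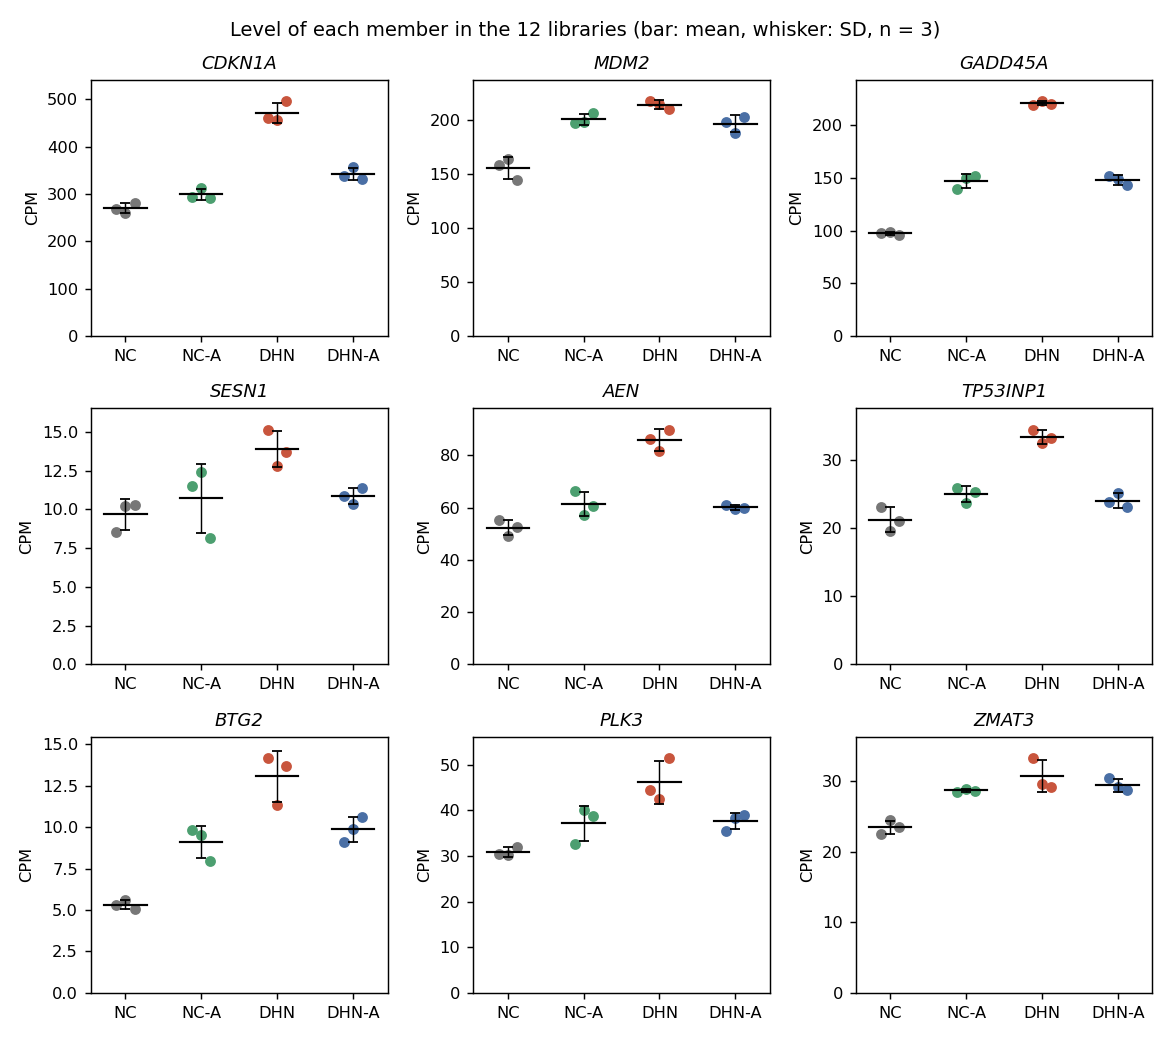
Level of each of the 9 genes in CPM (linear axis from 0) in NC, NC-A, DHN and DHN-A, 1 point per library, a bar at the group mean and whiskers of 1 SD (n = 3). The 3 DHN libraries lie above all other libraries in every panel but that of ZMAT3, and for CDKN1A they run from 456.5 to 496.0 CPM against 260.3 to 281.3 in NC.

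Among the genes of cell cycle arrest, CDKN1A (chromosome 6, 36676460 to 36687339, GRCh38) had the highest level; it shares 4.79% of its exon bases with an antisense gene. Its libraries 1, 2 and 3 were at 267.4, 260.3 and 281.3 CPM in NC and at 460.9, 456.5 and 496.0 in DHN. They were at 294.0, 312.9 and 291.6 CPM in NC-A and at 337.8, 357.2 and 332.5 in DHN-A. The 4 groups did not overlap and stood in the order NC, NC-A, DHN-A, DHN. CDKN1A rose by 0.80 ± 0.040 (log2 ± SE, edgeR adjusted p = 1.35e-21, 1.75-fold) in DHN against NC with a fall of 0.46 ± 0.040 in DHN-A against DHN (adjusted p = 1.99e-13). Asparagine on its own raised it by 0.15 ± 0.041 (edgeR adjusted p = 0.00585), a call lost without NC-A 2 (0.0820) and with no filter on low counts (0.0571), in a range of 0.00277 to 0.0820 over the alternatives.

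GADD45A (chromosome 1, 67685061 to 67688338) encodes a small protein that binds p21 and the kinase CDK1 and acts in arrest before mitosis and in DNA repair. The NC libraries were at 97.4, 98.5 and 96.0 CPM and the DHN libraries at 219.4, 222.9 and 220.6. Those of NC-A were at 139.4, 149.6 and 152.2 CPM and those of DHN-A at 152.0, 148.6 and 143.2. NC lay lowest and DHN highest, and the libraries of NC-A and DHN-A overlapped between them. GADD45A rose by 1.18 ± 0.042 (edgeR adjusted p = 2.93e-27) in DHN against NC with a fall of 0.58 ± 0.040 in DHN-A against DHN (adjusted p = 2.04e-16). It rose by 0.60 ± 0.043 with asparagine alone (adjusted p = 5.61e-15).

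BTG2 (chromosome 1, 203305491 to 203309602), an antiproliferative adaptor of the mRNA deadenylation machinery, had a low level and the largest rise of the 9. Reads of BTG2 gave 5.28, 5.60 and 5.07 CPM in NC and 14.2, 11.3 and 13.7 in DHN. They were at 9.83, 9.52 and 7.98 CPM in NC-A and at 9.095, 9.90 and 10.6 in DHN-A. NC was again below and DHN above every other library. BTG2 rose by 1.29 ± 0.12 (edgeR adjusted p = 4.63e-12, 2.45-fold) in DHN against NC, and its interval overlapped that of GADD45A (95% intervals of 1.04 to 1.54 and 1.10 to 1.27). It fell by 0.40 ± 0.11 in DHN-A against DHN (adjusted p = 0.00327) and rose by 0.77 ± 0.13 in NC-A against NC (adjusted p = 1.82e-05).

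PLK3 (chromosome 1, 44800225 to 44805990), a stress-activated polo-like kinase that can phosphorylate p53, was at 30.4, 30.1 and 32.0 CPM in NC and at 44.5, 42.4 and 51.4 in DHN. Its libraries were at 32.7, 39.97 and 38.7 CPM in NC-A and at 35.55, 38.3 and 38.9 in DHN-A. The 2 groups with asparagine overlapped each other and lay between NC and DHN. PLK3 rose by 0.58 ± 0.072 (edgeR adjusted p = 8.36e-09) in DHN against NC with a fall of 0.30 ± 0.069 in DHN-A against DHN (adjusted p = 4.40e-04). Its rise with asparagine alone was 0.27 ± 0.075 (adjusted p = 0.00797). That call was lost without NC-A 2 (edgeR adjusted p = 0.0814) or NC-A 3 (0.0630), in a range of 7.83e-04 to 0.0814 over the alternatives.

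MDM2 (chromosome 12, 68808176 to 68850686), the feedback ligase, had the third highest level per kilobase. Its NC libraries were at 158.1, 164.1 and 144.5 CPM and its DHN libraries at 217.6, 215.3 and 209.9. They were at 196.9, 198.6 and 206.6 CPM in NC-A and at 198.5, 188.2 and 203.2 in DHN-A. NC was below all other libraries, and DHN lay just above NC-A and DHN-A, which overlapped. MDM2 rose by 0.46 ± 0.043 (edgeR adjusted p = 1.77e-12) in DHN against NC and by 0.37 ± 0.043 in NC-A against NC (adjusted p = 7.52e-09). It fell by 0.12 ± 0.042 in DHN-A against DHN (adjusted p = 0.0156), a call lost without DHN-A 2 (edgeR adjusted p = 0.106) and with no filter on low counts (0.112), in a range of 0.00764 to 0.112 over the alternatives. MDM2 shares 5.91% of its exon bases with an antisense gene and 3.3% with another gene on its own strand, so a part of its reads cannot be assigned where the counting is not known.

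The other parts of the feedback loop were read from a list of 17 p53 regulators, of which 16 were tested. In DHN against NC 4 of them rose and 3 fell, with a median of -0.01. Over all tested genes 19.7% were called higher and 19.0% lower in that comparison, so the regulators' counts were near the background. PPM1D, the phosphatase WIP1 that switches p53 signalling off, rose by 1.02 ± 0.090 (edgeR adjusted p = 2.66e-11), from 19.6 ± 0.427 to 39.5 ± 0.388 CPM (mean ± SD, n = 3). Its NC-A level was 19.96 ± 2.55 CPM and its DHN-A level 20.04 ± 3.42. ATM, the kinase that signals DNA breaks to p53, fell by 0.47 ± 0.048, and the acetyltransferase EP300 rose by 0.21 ± 0.038. MDM4, the partner of MDM2, rose by 0.22 ± 0.057, and TP53BP1, a break-repair scaffold, was at -0.06 ± 0.037 (edgeR adjusted p = 0.243).

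SESN1 (chromosome 6, 108986437 to 109094819, minus strand) encodes a sestrin, an antioxidant protein that restrains the growth kinase mTORC1. The level of SESN1 was at 8.51, 10.2 and 10.3 CPM in NC and at 15.15, 12.8 and 13.7 in DHN. They were at 11.5, 12.4 and 8.16 CPM in NC-A and at 10.9, 10.3 and 11.4 in DHN-A. Only DHN stood clear, since the lowest library of all was NC-A 3. SESN1 rose by 0.50 ± 0.12 (edgeR adjusted p = 5.20e-04) in DHN against NC. It was at 0.12 ± 0.12 in NC-A against NC (adjusted p = 0.546), with a 95% interval of -0.13 to 0.37. Its fall of 0.35 ± 0.11 in DHN-A against DHN (adjusted p = 0.0117) was lost without DHN 1 (edgeR adjusted p = 0.0617), in a range of 0.00416 to 0.0617 over the alternatives. SESN1 shares 7.09% of its exon bases with an antisense gene.

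AEN (chromosome 15, 88621296 to 88632282) encodes a nuclease that degrades DNA and RNA in dying cells. The libraries stood at 55.1, 49.2 and 52.4 CPM in NC and at 86.4, 81.55 and 89.8 in DHN. They were at 66.3, 57.1 and 60.5 CPM in NC-A and at 61.0, 59.4 and 59.7 in DHN-A. NC-A and DHN-A overlapped, NC was lower and DHN higher than both. AEN rose by 0.72 ± 0.055 (edgeR adjusted p = 3.13e-15) in DHN against NC, fell by 0.52 ± 0.053 in DHN-A against DHN (adjusted p = 3.37e-11) and rose by 0.23 ± 0.057 in NC-A against NC (adjusted p = 0.00230).

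TP53INP1, a nuclear cofactor of p53 that also acts in autophagy, was at 23.1, 19.6 and 21.1 CPM in NC and at 34.5, 32.5 and 33.3 in DHN. Its libraries were at 25.9, 23.7 and 25.4 CPM in NC-A and at 23.8, 25.2 and 23.1 in DHN-A. The DHN libraries were above all others and the lowest DHN-A library was just under the highest NC library. TP53INP1 rose by 0.65 ± 0.074 (edgeR adjusted p = 4.65e-10) in DHN against NC with a fall of 0.47 ± 0.071 in DHN-A against DHN (adjusted p = 3.76e-07). Its rise of 0.24 ± 0.078 with asparagine alone (adjusted p = 0.0235) was lost without NC 2 (edgeR adjusted p = 0.134), NC 3 (0.0627), NC-A 1 (0.0903) or NC-A 3 (0.0860) and with no filter on low counts (0.103), in a range of 0.0127 to 0.134 over the alternatives.

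ZMAT3 (chromosome 3, 179017223 to 179072279, minus strand), a zinc finger RNA-binding protein that regulates splicing, was the member with the smallest rise. Its libraries were at 22.5, 24.4 and 23.45 CPM in NC and at 33.3, 29.65 and 29.2 in DHN. They were at 28.5, 28.85 and 28.7 CPM in NC-A and at 30.45, 29.2 and 28.7 in DHN-A. NC was below all others, and DHN and DHN-A overlapped. ZMAT3 rose by 0.38 ± 0.071 (edgeR adjusted p = 2.26e-05) in DHN against NC and by 0.29 ± 0.073 in NC-A against NC (adjusted p = 0.00320). It was at -0.05 ± 0.068 in DHN-A against DHN (adjusted p = 0.573), with a 95% interval of -0.19 to 0.08.

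**Figure D3:**
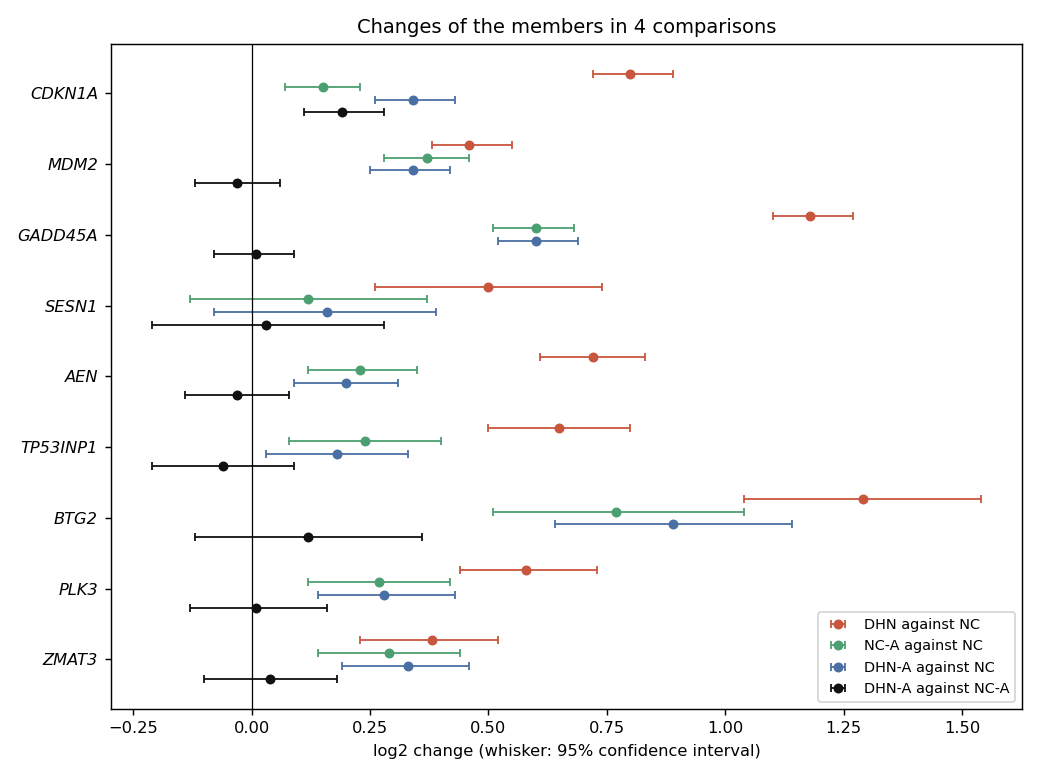
Log2 change of each of the 9 genes in DHN against NC, NC-A against NC, DHN-A against NC and DHN-A against NC-A (points), with 95% confidence intervals from edgeR (whiskers). All 9 lie above 0 in DHN against NC (0.38 to 1.29), and in DHN-A against NC-A the interval of CDKN1A alone excludes 0.

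DHN-A against NC-A asked what 1,2-DHN did when asparagine was present, from libraries that DHN against NC does not use. Of the 9 genes 1 was called higher, CDKN1A, while 0.805% of all tested genes were called higher, and the members' median was 0.01 against 0.003. CDKN1A rose by 0.19 ± 0.040 (edgeR adjusted p = 0.00294), a call lost without DHN-A 2 (0.0670), in a range of 5.32e-05 to 0.0670 over the alternatives. The 95% interval was -0.08 to 0.09 for GADD45A, -0.12 to 0.06 for MDM2 and -0.12 to 0.36 for BTG2. The interval of BTG2 is wide enough to leave a moderate rise undetected. Each of these intervals excludes the change seen without asparagine, 1.18 for GADD45A, 0.46 for MDM2 and 1.29 for BTG2.

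The interaction subtracts the response to 1,2-DHN without asparagine (NC to DHN) from the response with it (NC-A to DHN-A), and tests whether they differ. It was called lower for 9 of the 9 genes, where 12.5% of all tested genes were called lower, with a median of -0.61 against -0.000. GADD45A was at -1.18 ± 0.059 (edgeR adjusted p = 8.56e-21), BTG2 at -1.17 ± 0.17 (6.65e-07), AEN at -0.75 ± 0.078 (1.55e-10) and TP53INP1 at -0.71 ± 0.11 (6.99e-07). CDKN1A was at -0.61 ± 0.057 (6.25e-12), PLK3 at -0.57 ± 0.10 (2.91e-05), MDM2 at -0.49 ± 0.060 (1.06e-08) and ZMAT3 at -0.34 ± 0.10 (0.00818). SESN1 was at -0.47 ± 0.17 (edgeR adjusted p = 0.0340). The SESN1 call was lost in 9 of 17 alternatives, in a range of 0.00275 to 0.179, among them DESeq2 (0.0536), limma-voom (0.0704) and no filter on low counts (0.0847). It was lost without NC 1 (0.107), NC-A 1 (0.101), NC-A 2 (0.179), DHN 1 (0.0869), DHN-A 1 (0.0632) or DHN-A 2 (0.0722). Without NC-A 1, the library that stands apart, 8 of the 9 genes were called.

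Cells given both compounds were above untreated cells for most of the 9 genes. In DHN-A against NC 7 of the 9 genes were called higher, against 9.83% of all tested genes, with a median of 0.33 against 0.004. BTG2 rose by 0.89 ± 0.12, GADD45A by 0.60 ± 0.042, CDKN1A by 0.34 ± 0.040, MDM2 by 0.34 ± 0.042 and ZMAT3 by 0.33 ± 0.069. PLK3 rose by 0.28 ± 0.071 and AEN by 0.20 ± 0.055 (edgeR adjusted p = 0.00508), where the AEN call was lost without NC 2 (0.0504; 0.00301 to 0.0504 over the alternatives). TP53INP1 was at 0.18 ± 0.074 (edgeR adjusted p = 0.0739) and was called without NC 1 (0.0379; 0.0379 to 0.309 over the alternatives). SESN1 was at 0.16 ± 0.12 (adjusted p = 0.379). The same 7 genes were called higher with asparagine alone (NC-A against NC). There BTG2 rose by 0.77, GADD45A by 0.60, CDKN1A by 0.15, MDM2 by 0.37, ZMAT3 by 0.29, PLK3 by 0.27 and AEN by 0.23. Of the 7, DHN-A against NC-A called CDKN1A alone.

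DHN against NC-A, a comparison added after the data were seen, set each compound alone against the other. Of the 9 genes 7 were called higher with 1,2-DHN, against 21.1% of all tested genes, with a median of 0.41 against -0.012. CDKN1A was higher by 0.65 ± 0.040, GADD45A by 0.59 ± 0.041, BTG2 by 0.52 ± 0.12 and AEN by 0.49 ± 0.056. For SESN1 the difference was 0.38 ± 0.12 (edgeR adjusted p = 0.00938), a call lost without NC-A 3 (0.206; 0.0026 to 0.206 over the alternatives). MDM2 was at 0.09 ± 0.043 (edgeR adjusted p = 0.0795) and was called when only these 2 groups were fitted (0.0407; 0.0407 to 0.207 over the alternatives). ZMAT3 was at 0.09 ± 0.072 (adjusted p = 0.335).

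As a description, Pearson correlations between members over the 12 libraries (log2 CPM with a prior count of 2) ran from 0.55 for MDM2 and SESN1 to 0.98 for AEN and TP53INP1. CDKN1A and GADD45A were at 0.93, and MDM2 and ZMAT3 at 0.92. The libraries share 4 group means, so these values mostly repeat the group differences. To find genes of like pattern, those with a mean count of 50 or more were kept and symbols of placeholder type were left out. The rule on names also left out symbols ending in P and a number, such as TP53INP1. Among the 10625 tested genes that remained, the pattern of CDKN1A was most like those of FTL, GATAD2A and AP5Z1. Their r was 0.986, 0.983 and 0.980, and FTL encodes the ferritin light chain. GADD45A was nearest to RND3 (0.989), SESN2, a stress-inducible sestrin (0.984), and the stress cytokine gene GDF15 (0.982). MDM2 was nearest to the long noncoding RNA gene PVT1 (0.974), FRMD6 (0.955) and FAM13B (0.952).

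Of 47 other p53 targets 40 were tested. In DHN against NC 21 of them rose and 6 fell, with a median of 0.16, where 19.7% of all tested genes were called higher and 19.0% lower. In DHN-A against DHN 6 rose and 18 fell, beside 20.9% and 20.8% of all tested genes. In NC-A against NC 8 rose and 5 fell, beside 9.32% and 10.9%. In DHN-A against NC-A the only call was TRIAP1, a small inhibitor of apoptosis, which fell by 0.30 ± 0.075 (edgeR adjusted p = 0.0186). No gene of the list was called by DESeq2, or by edgeR without NC-A 1, NC-A 3, DHN-A 1 or DHN-A 2. At an unadjusted p under 0.05, edgeR had 3 of the 40 higher and 4 lower. In the interaction 4 were higher and 17 lower, beside 13.2% and 12.5%.

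The targets that act in cell death included 8 of 13 tested that rose in DHN against NC, beside 19.7% of all tested genes. BBC3, which encodes the death effector PUMA, rose by 0.86 ± 0.081, from 17.4 to 31.7 CPM. The death receptor genes TNFRSF10B and TNFRSF10A rose by 0.46 ± 0.042 and 0.42 ± 0.072, and AIFM2, a mitochondria-associated oxidoreductase gene, by 0.24 ± 0.052. In NC-A against NC BBC3 was at 0.04 ± 0.088 (edgeR adjusted p = 0.817) and TNFRSF10B at 0.08 ± 0.043 (adjusted p = 0.209).

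Of the targets in DNA repair and metabolism 6 of 13 tested rose and 2 fell in DHN against NC. Over all tested genes 19.7% were called higher and 19.0% lower. SESN2 rose by 1.41 ± 0.049 and the ribonucleotide reductase subunit gene RRM2B by 0.45 ± 0.044. ACER2, a ceramidase gene at low level (3.475 CPM in NC and 6.78 in DHN), rose by 0.96 ± 0.17, and DRAM1, a lysosomal regulator of autophagy, fell by 0.65 ± 0.065. The level of RRM2B was 105.3 CPM in NC, 144.1 CPM with 1,2-DHN and 141.2 CPM with both compounds, and DHN-A did not differ from DHN past the threshold (-0.03 ± 0.042, edgeR adjusted p = 0.621). Of the arrest and signalling targets 7 of 14 tested rose and 4 fell, beside the same 19.7% and 19.0%. IER5, an immediate early gene, rose by 0.92 ± 0.043, GDF15 by 0.84 ± 0.064 and the polo-like kinase gene PLK2 by 0.70 ± 0.042, while TRIM22, an interferon-inducible gene, fell by 0.82 ± 0.048.

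**Figure D4:**
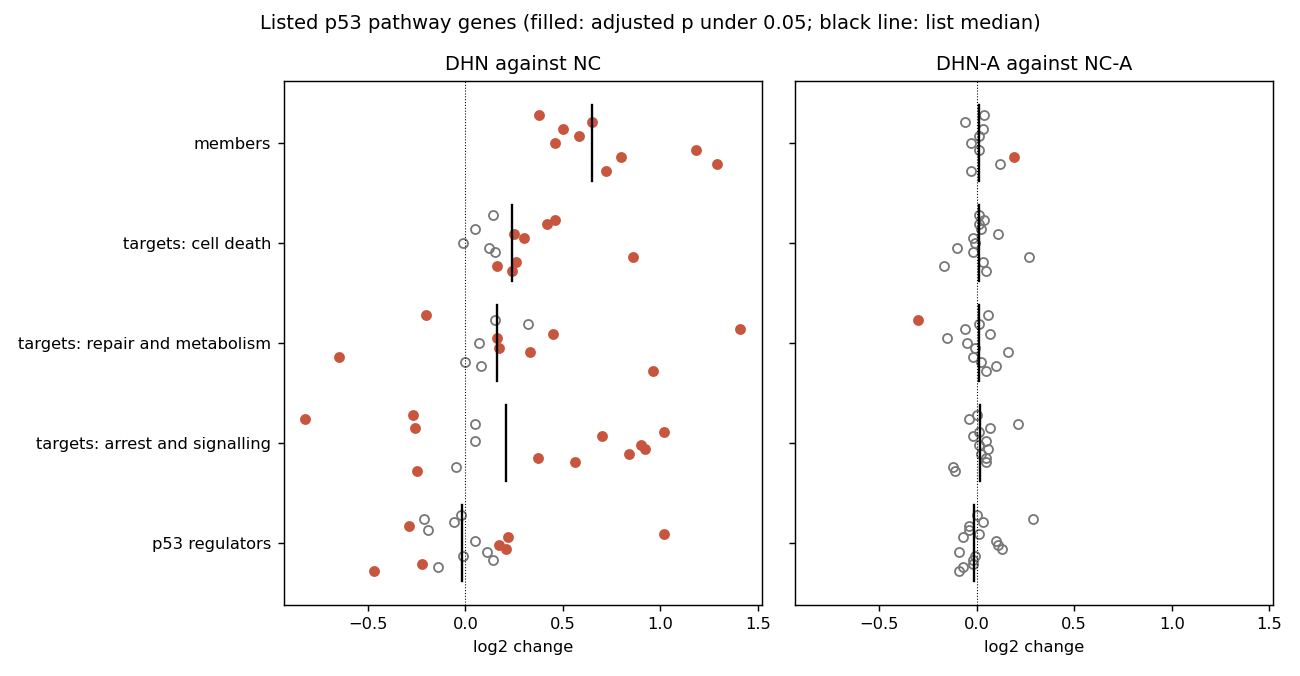
Log2 change in DHN against NC (left) and in DHN-A against NC-A (right) of every tested gene of the members, the other p53 targets by role and the p53 regulators, 1 point per gene, filled where edgeR called it, with a black line at each list's median. On the left all 9 members are called above 0, with 21 of the 40 other targets called higher and 6 lower; on the right the calls are CDKN1A and TRIAP1.

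Genes of the same families as the members were also read. Of 22 paralogues 19 were tested, and 14 rose and 4 fell in DHN against NC, beside 19.7% and 19.0% of all tested genes. GADD45B rose by 2.48 ± 0.056, from 26.8 ± 1.27 to 148.9 ± 7.57 CPM (mean ± SD, n = 3), and its interaction was -2.35 ± 0.084. In NC-A against NC it rose by 0.19 ± 0.065, where GADD45A had risen by 0.60. SESN3 rose by 1.52 ± 0.48 from a very low level, and BTG1 rose by 0.19 ± 0.042. CDKN1B, which encodes the CDK inhibitor p27, fell by 0.16 ± 0.045, opposite to CDKN1A.

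A list of 15 cell cycle genes known to be repressed once p21 acts was also read, and all 15 were tested. In DHN against NC 13 of them fell and 1 rose, with a median of -0.35, where 19.0% of all tested genes were called lower and 19.7% higher. The kinesin gene KIF20A fell by 0.75 ± 0.044, the mitotic kinase gene PLK1 by 0.67 ± 0.044, CENPF by 0.54 ± 0.038 and the topoisomerase gene TOP2A by 0.53 ± 0.035. MYBL2, a cell cycle transcription factor, rose by 0.28 ± 0.044, named as the only rise. In DHN-A against DHN 10 rose and 1 fell, beside 20.9% and 20.8% of all tested genes. In NC-A against NC 8 fell, where 10.9% of all tested genes were called lower. Of 10 tested cyclins and CDKs, which p21 and its relatives bind, 3 rose and 6 fell in DHN against NC, beside the same 19.7% and 19.0%. CCNA2, CCNB1 and CDK1 stand in both lists. The mitotic cyclin gene CCNB1 fell by 0.48 ± 0.041 and CCND1 by 0.28 ± 0.035, while CCNE1 rose by 0.38 ± 0.042 and CCND3 by 0.32 ± 0.049. The part of CDKN1A in the changes of these cell cycle genes was not tested.

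Of 11 other transcription factors that act on members, all tested, 10 rose and 1 fell in DHN against NC, with a median of 0.59, beside 19.7% and 19.0% of all tested genes. EGR1 rose by 2.38 ± 0.059, KLF4 by 1.17 ± 0.071, ATF3 by 1.15 ± 0.041 and ATF4 by 0.66 ± 0.037. ATF4 rose by 0.71 ± 0.037 in NC-A against NC and was at -0.07 ± 0.036 in DHN-A against DHN (edgeR adjusted p = 0.128), with mean levels of 245.1 CPM in NC, 401.6 CPM in NC-A, 387.1 CPM in DHN and 369.1 CPM in DHN-A. EGR1 rose by 0.23 ± 0.068 in NC-A against NC with a fall of 1.86 ± 0.055 in DHN-A against DHN. KLF4 fell in both, by 0.37 ± 0.081 and 1.35 ± 0.070. The part of these factors in the members' changes was not tested.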

How the data were processed

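The authors deposited 1 table of unnormalised read counts, with a row per gene symbol, a column per library (12) and a column of gene lengths. The genome was hg38 and the aligner Bowtie, per the submitters' processing notes, and the libraries were stranded, per the labels' protocols; the sources used here do not give the annotation, counting tool or strand setting. Groups were taken from the labels. Genes passing filterByExpr were fitted in 1 quasi-likelihood model over all 12 libraries (edgeR 4.0.16, R 4.3.3, TMM factors, robust), with Benjamini-Hochberg adjustment over 17889 tested genes and a threshold of 0.05. Standard errors are derived from each log2 change and its F statistic and are approximate. The square root of the common dispersion was 4.60%. Replicate pairs had a chi-square per gene of 1.737 to 3.945, so no pair looked like the same library. Coordinates are from GENCODE release 29 (GRCh38) and promoter windows from RefSeq (GRCh38.p14). The deposited length of CDKN1A, SESN1 and BTG2 equals the GENCODE exon union, and those of the other members differ from it.

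The members and lists were chosen with earlier results of these data known. Named are all members in every comparison, a fixed set of regulators and paralogues (MDM4, PPM1D, TP53BP1, CDKN1B, GADD45B, SESN2, SESN3, BTG1, PLK2), and up to 4 called genes of each other list with the smallest p in DHN against NC. The 3 genes most like CDKN1A, MDM2 and GADD45A are named too, among genes kept by the limits on count and name given above. For 1 gene selected in this way no values are reported here. TRIAP1, MYBL2 and the cell type markers were named after their values were seen. Lists are described by counts and medians, with no test of a list. Some genes stand in several lists, among them SESN2, PLK2, MDM4, PPM1D and CCNB1, so the counts of different lists are not independent. As alternatives the fit used relative log expression factors, no filter on low counts, the replicate number as a block or only the groups compared; DESeq2 1.42.0 and limma-voom (limma 3.58.1) replaced it, and every library was left out in turn. DHN against NC-A was added after the data were seen. The procedure was also run on simulated counts drawn from the fitted model, with far fewer changed genes than were called in DHN against NC. That run does not show how the fit performs where many genes change.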

Additional observations from a re-analysis of the deposited data

Results flagged for a closer look

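The response to 1,2-DHN was called different with and without added asparagine for each of the 9 genes. This rests on the interaction term of the edgeR fit over all genes, where 12.5% of all tested genes were called lower. The interaction was -1.18 for GADD45A, -1.17 for BTG2, -0.75 for AEN, -0.71 for TP53INP1, -0.61 for CDKN1A, -0.57 for PLK3, -0.49 for MDM2, -0.47 for SESN1 and -0.34 for ZMAT3 on the log2 scale. The call of SESN1 was lost in 9 of 17 alternatives and that of ZMAT3 with no filter on low counts (edgeR adjusted p = 0.0609, in a range of 0.00523 to 0.0609). ZMAT3 and MDM2 had the smallest changes of the 9 in DHN-A against DHN, at -0.05 and -0.12.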

How the results depend on the processing

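Of 1121 alternative values of the members, 1082 kept their direction and their side of the threshold, including all 162 in DHN against NC. Calls were lost in 25 and gained in 2, and 12 changed sign, all of them for values that were not called. In DHN-A against NC-A, MDM2 was 0.0023 and AEN 0.0035 with no filter on low counts. With 1 library left out, values there ran from -0.058 to 0.0002 for MDM2, -0.028 to 0.036 for GADD45A, -0.14 to 0.16 for SESN1, -0.073 to 0.028 for AEN and -0.065 to 0.07 for PLK3. SESN1 in NC-A against NC ran from -0.0039 (without NC-A 2) to 0.295. The number of members called with 1 library left out was 9 to 9 in DHN against NC, 7 to 8 in DHN-A against DHN, 6 to 8 in NC-A against NC, 0 to 1 in DHN-A against NC-A (0 without DHN-A 2), 6 to 8 in DHN-A against NC, 8 to 9 for the interaction and 6 to 7 in DHN against NC-A. Of the other p53 targets in DHN-A against NC-A, DESeq2 called 0, no filter on low counts called 2, and leaving out 1 library gave 0 to 1. The cause was not tested. Libraries with the same number did not deviate together in a consistent way (correlations of -0.398 to 0.396). No consistent pairing by the labels' numbers was seen, though with 3 libraries per group a weak pairing could be missed. With the replicate number as a block, members called were 9 in DHN against NC, 8 in DHN-A against DHN, 8 in NC-A against NC, 1 in DHN-A against NC-A, 7 in DHN-A against NC, 9 in the interaction and 7 in DHN against NC-A, the same numbers as without it. No scaling moved the median of all genes by over 0.1. The scalings tried each set the typical gene near no change, so a shift shared by most genes could not be seen. Depth limits SESN1 and BTG2 most, whose group means were 156.3 to 282.7 and 107 to 256.3 reads.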
